A study of Mus musculus with 15 samples.

Results

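Goblet cells are the mucus-making cells of the intestinal epithelium, and 10 genes of their secretory output were followed here: Muc2, Fcgbp, Clca1, Zg16, Agr2, Tff3, Spink4, Retnlb, Klk1 and Guca2a. They were found on the arrays through the accession that each probe carries, looked up in the RefSeq gene table. By this lookup every gene of the 10 had exactly 1 probe, so these are 10 of 20144 genes named on the array and 10 of its 39429 probes. The 12848 probes that the lookup left unnamed were not searched further. The probes of all 10 genes were among the 28488 probes bright enough to be tested. The 10 genes were chosen with earlier results of these data known.

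The RNA came from crypts, the epithelial pits of the small intestine that hold the stem cells, dividing progenitors and Paneth cells. The mice were 6 to 8 weeks old and the crypts were collected 24 h after antibody. In the N1N2 plus Lrp6 group, animals received antibodies that block Notch1 and Notch2 and, with them, 30 mg/kg of an antibody to the Wnt co-receptor Lrp6. In the N1N2 group they received the Notch antibodies alone, labelled as a single dose of 1 mg/mL. That figure is a concentration, and how much each mouse received is not given in these sources. Control animals received an IgG antibody. Each of the 3 groups had 5 arrays, called biological replicates in the series design, and whether an array holds RNA of 1 animal or of several is not stated. The antibodies were given to the whole animal, so receptors on cells outside the epithelium were exposed to them too. On all 15 arrays the red channel held crypt RNA and the green channel a universal mouse reference RNA, and every level below is a log2 ratio of crypt over reference.

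In the intestine, Notch signalling between neighbouring cells keeps crypt progenitors out of the secretory lineage. Active Notch induces the repressor Hes1, which holds down Atoh1, the factor that commits a cell to a goblet, Paneth or enteroendocrine fate. Blocking Notch is known to turn progenitors towards secretory fates, and Spdef acts after Atoh1 in goblet cell maturation. A goblet cell assembles the mucin Muc2 in the endoplasmic reticulum (ER) and Golgi, packs it into granules and releases it together with trefoil peptides, lectins, protease-like proteins and antimicrobial products. The series compares N1N2 with control and N1N2 plus Lrp6 with N1N2, and the comparison of N1N2 plus Lrp6 with control was added.

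RefSeq promoter windows on mouse build GRCm38.p6 were held for 5 of the 10 genes, Muc2, Fcgbp, Agr2, Klk1 and Guca2a. The 250 bases before the gene start are shown for 3 of them. Agr2 is the one of the 5 whose change passed the test. Muc2 is the mucin itself, and Guca2a followed Muc2 closely across arrays. Capitals mark matches, on either strand, to CAGCTG or CAGATG (E-boxes, the kind of site bound by basic helix-loop-helix factors such as Atoh1), CACNAG (the N-box described for Hes proteins), TGTTTAC (a forkhead core of the kind bound by Foxa factors) and TATAAA (the TATA box).
Agr2, chr12:35992675-35992924, plus strand: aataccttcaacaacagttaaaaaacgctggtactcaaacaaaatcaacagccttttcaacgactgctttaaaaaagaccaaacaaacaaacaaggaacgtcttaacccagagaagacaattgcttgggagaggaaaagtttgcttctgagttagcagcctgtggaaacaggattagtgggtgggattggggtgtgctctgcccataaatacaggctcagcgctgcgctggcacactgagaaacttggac
Muc2, chr7:141690090-141690339, plus strand: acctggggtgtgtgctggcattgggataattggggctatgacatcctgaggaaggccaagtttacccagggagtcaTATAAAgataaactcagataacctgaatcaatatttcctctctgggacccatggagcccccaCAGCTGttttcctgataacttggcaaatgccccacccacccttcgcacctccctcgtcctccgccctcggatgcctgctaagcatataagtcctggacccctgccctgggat
Guca2a, chr4:119637482-119637731, plus strand: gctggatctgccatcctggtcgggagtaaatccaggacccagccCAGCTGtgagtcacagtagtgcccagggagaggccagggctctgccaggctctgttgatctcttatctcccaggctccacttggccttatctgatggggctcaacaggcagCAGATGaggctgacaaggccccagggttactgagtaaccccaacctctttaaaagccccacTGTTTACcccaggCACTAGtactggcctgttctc

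The Agr2 window held none of these letter strings. The Muc2 window held 1 of the first E-box, whose first base lies 112 bases before the gene start and the TATA box at 174 bases. Guca2a held the first E-box at 206 bases, the second at 95 bases, the forkhead core at 34 bases and the N-box at 21 bases. Of the other windows, Fcgbp held the first E-box at 208 bases, where it overlaps an N-box at 211 bases, and Klk1 held the second E-box, on the opposite strand, at 197 bases. Over 32851 promoter windows of the same length, 13.0% held the first E-box, 14.4% the second, 36.7% the N-box, 3.2% the forkhead core and 12.4% the TATA box. A match is a description of the letters in the window, not of binding.

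The arrays were of uneven quality. The share of spots with red signal well above background was 57.2% to 73.6% in N1N2 plus Lrp6 crypts, 70.1% to 77.2% in N1N2 crypts and 71.1% to 79.8% in control crypts, and its part in the results was not tested. No spot was saturated, and the 15 arrays lay on 6 slides, each scanned on its own. One slide held 2 control and 2 N1N2 arrays. The rest held 1 group each, so slide and group cannot be told apart for N1N2 plus Lrp6. Replicate 2 of N1N2 plus Lrp6 had the highest value of its group for all 10 genes. For Klk1 its lead was small, 4.71 against 4.68 on replicate 3. Results that rest on replicate 2 are given with and without it. As labelled, the crypts carried the defining Paneth markers: Lyz1 and Defa5 were well above background on all 15 arrays. Markers of enterocytes, such as Fabp1 and Sis, were well above background on all 15 arrays too, as were collagen genes. These are bulk samples, in which more goblet cells and more RNA per goblet cell cannot be told apart.

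With Notch1 and Notch2 blocked, the crypts had higher Agr2, Retnlb and Tff3 than control crypts, by 2.42-fold, 3.51-fold and 1.54-fold. The main mucin Muc2 and its gel partners Fcgbp, Clca1 and Zg16 had differences above 0 that did not pass the test. A gene was called when its p-value, from limma with Benjamini-Hochberg adjustment over all 28488 probes, was under 0.05 (two-sided). By that rule 3 of the 10 products were higher in N1N2 crypts and 0 were lower, against a background of 6.2% of all probes called higher, 5.23% called lower and 11.4% called in either direction. Of all probes called, 54.3% were higher, and 45.6% were with median centring in place of loess. All 10 differences were above 0, with a median of 0.58 on the log2 scale, although 6 lay below 0 once the spread of ratios was evened out between arrays, and Zg16 did with median centring (-0.0053). Of all probes, 48.4% were above 0 and their median was -0.00657. For 6 of the 10 the lowest N1N2 array lay above the highest control array, and 5.77% of all probes did the same. None of the 10 had all N1N2 arrays below all control arrays, as 6.26% of probes did.

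**Figure D1:**
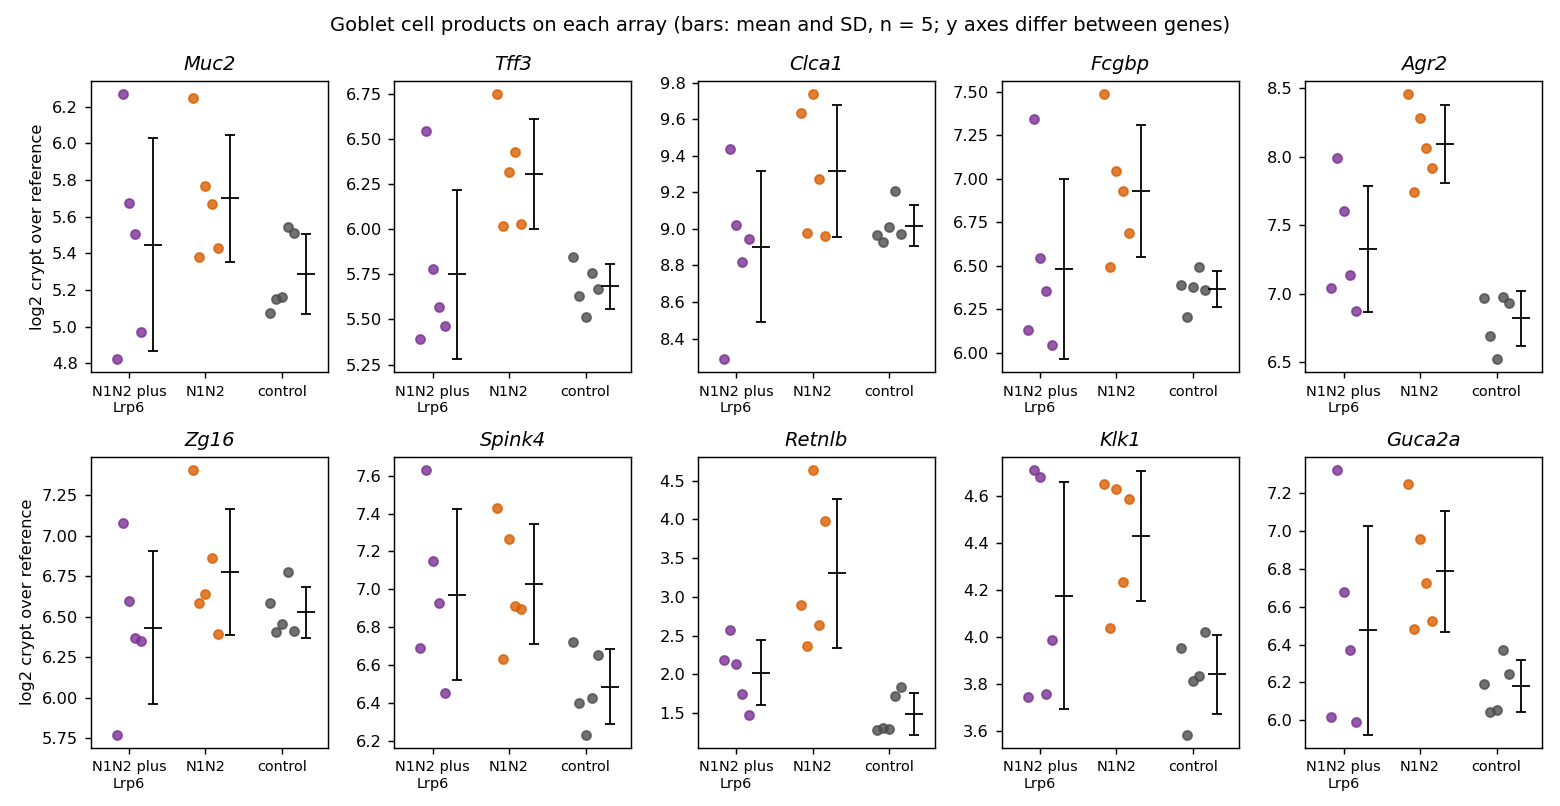
Log2 ratio of crypt over reference RNA (vertical axis, its range differing between panels) for each of the 10 products on the 5 arrays of N1N2 plus Lrp6, N1N2 and control crypts. Points are single arrays and bars give the mean and SD of each group. All N1N2 points lie above all control points for Tff3, Fcgbp, Agr2, Retnlb, Klk1 and Guca2a, while N1N2 plus Lrp6 points overlap both other groups in every panel.

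Agr2 is a protein disulphide isomerase of the goblet cell ER that is required for making Muc2. Its log2 ratios were 7.04, 7.99, 7.60, 7.14 and 6.87 in N1N2 plus Lrp6 crypts, 8.45, 7.74, 8.28, 8.06 and 7.92 in N1N2 crypts, and 6.97, 6.69, 6.52, 6.98 and 6.93 in control crypts. Every N1N2 array was above every control array, while N1N2 plus Lrp6 replicate 5 lay inside the control range and replicate 2 lay above 2 of the N1N2 arrays. In N1N2 against control crypts Agr2 rose by 1.27 on the log2 scale (SE 0.19, 95% interval 0.87 to 1.68, limma adjusted p = 0.000649). Within the slide that both groups share, with slide as a block, the Agr2 difference was 1.14, and limma's adjusted p was 0.173 from those 2 arrays a group. With the spread of ratios evened out between arrays it was 0.53 (limma adjusted p = 0.212).

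Retnlb encodes resistin-like molecule beta, a goblet cell product with antimicrobial activity. It read 2.19, 2.57, 2.14, 1.75 and 1.47 in N1N2 plus Lrp6 crypts, 2.89, 2.36, 4.64, 2.64 and 3.98 in N1N2 crypts, and 1.29, 1.31, 1.30, 1.72 and 1.83 in control crypts. The N1N2 arrays were all above the control arrays and were spread widely, with replicates 3 and 5 far above the other three. Retnlb rose by 1.81 in N1N2 against control crypts (SE 0.35, 95% interval 1.07 to 2.56, limma adjusted p = 0.00439). The difference without N1N2 replicate 3 was 1.48 (limma adjusted p = 0.00558), and within the shared slide, with slide as a block, it was 0.85 (limma adjusted p = 0.365). Retnlb was the dim member: its reference channel was well above background on only 1 of 15 arrays, so its ratio rests on the crypt channel, which was well above background on all 15. The background-subtracted red signal of Retnlb was 285.5 to 623 in N1N2 plus Lrp6 crypts, 654.5 to 2165 in N1N2 crypts and 186 to 315.5 in control crypts. On the red channel alone, a setting chosen after seeing the data, the Retnlb difference of N1N2 from control was 2.00 (limma adjusted p = 0.00163).

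Tff3 is the trefoil factor of intestinal goblet cells, a small peptide that acts with mucus in repair of the epithelial surface. Its log2 ratios were 5.39, 6.55, 5.78, 5.57 and 5.47 in N1N2 plus Lrp6 crypts, 6.75, 6.02, 6.32, 6.43 and 6.03 in N1N2 crypts, and 5.85, 5.63, 5.51, 5.76 and 5.67 in control crypts. The N1N2 arrays did not overlap the control arrays, whose values lay close together. Tff3 rose by 0.62 in N1N2 against control crypts (SE 0.19, 95% interval 0.22 to 1.03, limma adjusted p = 0.045). That call lies at the threshold: it was kept under 7 of 22 alternative settings, whose adjusted p-values from limma ran from 0.00253 to 0.944, and within the shared slide the difference was 0.67 (adjusted p = 0.439).

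Muc2 is the gel-forming mucin that makes up most of intestinal mucus. It read 4.82, 6.27, 5.67, 5.51 and 4.97 in N1N2 plus Lrp6 crypts, 6.25, 5.38, 5.76, 5.67 and 5.43 in N1N2 crypts, and 5.07, 5.15, 5.16, 5.54 and 5.51 in control crypts. The 3 groups overlapped, and N1N2 plus Lrp6 spanned the whole range of the other two. Muc2 differed by 0.41 between N1N2 and control crypts (SE 0.23, 95% interval -0.08 to 0.91, limma adjusted p = 0.282), an interval that holds both no change and a 1.88-fold higher level.

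The proteins that bind or process the Muc2 gel did not pass the test either. Fcgbp, a large protein that is linked to Muc2 in mucus, read 6.13, 7.34, 6.54, 6.36 and 6.05 in N1N2 plus Lrp6 crypts, 7.49, 6.49, 7.05, 6.93 and 6.69 in N1N2 crypts, and 6.39, 6.21, 6.38, 6.49 and 6.36 in control crypts. Its lowest N1N2 array only just cleared its highest control array, and the difference of 0.56 (SE 0.21) did not pass (limma adjusted p = 0.102). Clca1, a metalloprotease-like protein that helps to expand the mucus layer, averaged 8.90 ± 0.41 in N1N2 plus Lrp6 crypts, 9.32 ± 0.36 in N1N2 crypts and 9.02 ± 0.11 in control crypts (SD, n = 5 each). Its N1N2 arrays ran from 8.96 to 9.74 and overlapped the control arrays, which ran from 8.93 to 9.21. The Clca1 difference of N1N2 from control was 0.30 (SE 0.19, limma adjusted p = 0.332). Zg16 is a lectin that binds the cell walls of Gram-positive bacteria and keeps them away from the epithelium. It averaged 6.43 ± 0.47 in N1N2 plus Lrp6 crypts, 6.78 ± 0.39 in N1N2 crypts and 6.53 ± 0.16 in control crypts (SD, n = 5 each). Zg16 had the smallest N1N2 difference from control among the 10 genes, 0.25 (SE 0.21, limma adjusted p = 0.485), and only 2 of its N1N2 arrays lay above all control arrays.

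The remaining 3 products also missed the threshold. Spink4 belongs to the Kazal family of serine protease inhibitors. It read 6.69, 7.63, 7.15, 6.93 and 6.45 in N1N2 plus Lrp6 crypts, 7.43, 6.63, 7.26, 6.91 and 6.89 in N1N2 crypts, and 6.72, 6.40, 6.23, 6.43 and 6.65 in control crypts. Of the N1N2 arrays, 4 lay above every control array, and the Spink4 difference was 0.54 (SE 0.19, limma adjusted p = 0.0846). Klk1, a secreted serine protease of the kallikrein family, averaged 4.18 ± 0.49 in N1N2 plus Lrp6 crypts, 4.43 ± 0.28 in N1N2 crypts and 3.84 ± 0.17 in control crypts (SD, n = 5 each). Klk1 differed by 0.59 between N1N2 and control crypts (SE 0.19, limma adjusted p = 0.0607), with no overlap between the 2 groups, and it passed without N1N2 replicate 2 (0.69, limma adjusted p = 0.0457). Guca2a encodes the precursor of guanylin, the peptide that activates the receptor guanylate cyclase Gucy2c and so drives chloride and fluid secretion. It averaged 6.48 ± 0.55 in N1N2 plus Lrp6 crypts, 6.79 ± 0.32 in N1N2 crypts and 6.18 ± 0.14 in control crypts (SD, n = 5 each). Its N1N2 and control arrays did not overlap, and the Guca2a difference was 0.61 (SE 0.21, limma adjusted p = 0.0792).

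Whether these 7 genes passed depended on the settings of the fit. When only the N1N2 and control arrays entered the fit, 7 of the 10 products were called higher: Tff3, Fcgbp, Agr2, Spink4, Retnlb, Klk1 and Guca2a. In the fit of all 15 arrays the wider spread of N1N2 plus Lrp6 is shared by every comparison. Its part in the calls was not tested. With slide as a fixed block, none of the 10 was called and 117 probes of all were. The 10 differences then ranged from 0.22 for Clca1 to 1.14 for Agr2. One scaling turned 6 of these directions: setting the median absolute log ratio equal on all arrays. It multiplied the ratios of an array by 0.906 to 0.969 in N1N2 crypts and by 0.927 to 1.104 in control crypts, and the log ratios of these genes are large. Over the tested probes the median absolute log2 ratio was 0.408 to 0.554 before this step and 0.472 to 0.531 after it. Muc2, Fcgbp, Clca1, Zg16, Spink4 and Guca2a then lay below 0 in N1N2 against control crypts, the median of the 10 was -0.059, and Retnlb was the product still called (1.55, limma adjusted p = 0.0116).

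**Figure D2:**
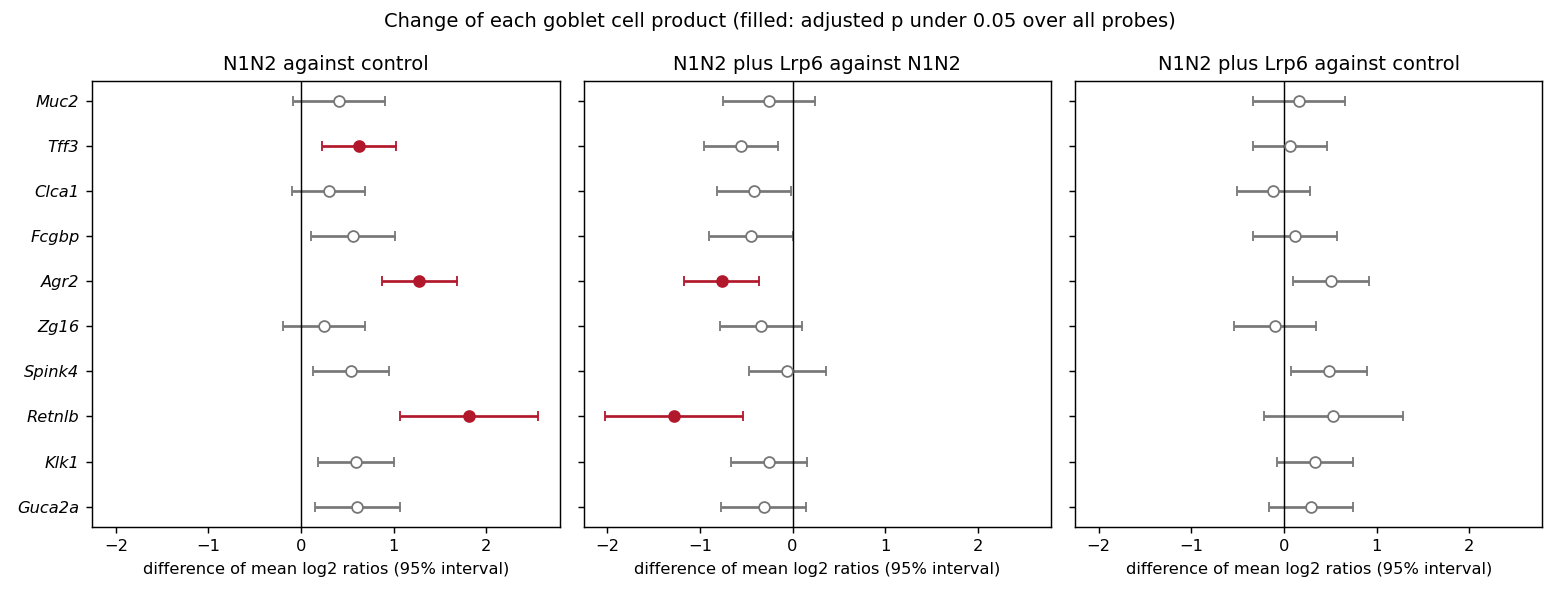
Difference of mean log2 ratios (horizontal axis) with its 95% interval for each of the 10 products in the comparisons of N1N2 with control, N1N2 plus Lrp6 with N1N2, and N1N2 plus Lrp6 with control crypts. Filled points passed an adjusted p of 0.05 in limma, which are Agr2, Retnlb and Tff3 in the first comparison and Agr2 and Retnlb in the second.

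Crypts with the Lrp6 antibody added to Notch blockade had lower Agr2 and Retnlb than crypts with Notch blockade alone, at 0.59 and 0.41 times the N1N2 level. The 2 groups share no slide, so slide and treatment cannot be told apart in this comparison. By the same rule 2 of the 10 products were called lower and 0 higher in N1N2 plus Lrp6 against N1N2 crypts, where 6.87% of all probes were called lower, 9.67% higher and 16.5% in either direction. Of all probes called, 58.5% were higher, and 77.2% were with median centring in place of loess. All 10 differences were below 0, with a median of -0.38, although 7 lay above 0 with the spread of ratios evened out, 3 with median centring and 2 with the scanner software's log ratio. Agr2, Retnlb and Tff3 stayed below 0 under each of these, while 50.8% of all probes were above 0. None of the 10 was free of overlap between the 2 groups, where 3.69% of all probes lay wholly lower and 6.16% wholly higher in N1N2 plus Lrp6. This comparison and the one before share the N1N2 arrays, so a high N1N2 array moves both.

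Agr2 fell by 0.76 on the log2 scale in N1N2 plus Lrp6 against N1N2 crypts (SE 0.19, 95% interval -1.17 to -0.36, limma adjusted p = 0.0132), and 4 of the 5 N1N2 plus Lrp6 arrays lay below every N1N2 array. The Agr2 call was kept under 18 of 21 alternatives. It was lost with median centring (-0.42, limma adjusted p = 0.0654), with the scanner software's log ratio (-0.67, adjusted p = 0.0534) and with the spread of ratios evened out (-0.060, adjusted p = 0.915). Retnlb fell by 1.28 (SE 0.35, 95% interval -2.03 to -0.53, limma adjusted p = 0.0213), again with 4 arrays below every N1N2 array. Leaving out single arrays of either group kept the Retnlb difference between -1.51 and -0.94, with limma adjusted p-values from 0.0137 to 0.0546. The call was lost without N1N2 replicate 5 (adjusted p = 0.0503) and without N1N2 plus Lrp6 replicate 4 (adjusted p = 0.0546). It was also lost with the spread evened out (-1.01, limma adjusted p = 0.0605) and with only the 2 groups in the fit (adjusted p = 0.061). For Tff3 the difference was -0.56 (SE 0.19, limma adjusted p = 0.0569), for Fcgbp -0.44 (SE 0.21, adjusted p = 0.183) and for Clca1 -0.41 (SE 0.19, adjusted p = 0.15). At the other end stood Spink4, with a difference of -0.06 (95% interval -0.47 to 0.36, limma adjusted p = 0.896). The Muc2 difference was -0.25 (95% interval -0.75 to 0.24, limma adjusted p = 0.543).

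The number of genes called lower depended on replicate 2 of N1N2 plus Lrp6. Replicate 2 was singled out because it was the highest of its group for all 10 genes. Leaving out this array therefore lowers each of those group means by construction. Without it, 6 of the 10 products were called lower in N1N2 plus Lrp6 against N1N2 crypts: Tff3, Clca1, Fcgbp, Agr2, Retnlb and Guca2a. The Tff3 difference was then -0.76 (limma adjusted p = 0.00248), that of Fcgbp -0.66 (adjusted p = 0.0115), that of Guca2a -0.52 (adjusted p = 0.0374) and that of Clca1 -0.55 (adjusted p = 0.0382). Agr2 stood at -0.93 (limma adjusted p = 0.0021) and Retnlb at -1.42 (adjusted p = 0.0155) without that array. Leaving out replicate 4 of N1N2 plus Lrp6 instead left 1 product called. With single arrays of either group left out in turn, 2937 to 5624 of all probes were called.

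Set against control, crypts that received both treatments had no product past the test. Of the 10, 0 were called by limma, 2 had an unadjusted p under 0.05, and the background over all probes was 0.358% in either direction and 0.197% higher. Of the 102 probes called, 54.9% were higher, against 66.1% with the spread of ratios evened out and 38.1% with the scanner software's log ratio. Of the differences, 8 were above 0 and 2, those of Clca1 and Zg16, were below, with a median of 0.23, where 52.9% of all probes were above 0. The 2 with a small unadjusted p were Agr2, at 0.51 (95% interval 0.10 to 0.91, limma adjusted p = 0.291), and Spink4, at 0.48 (95% interval 0.07 to 0.90, adjusted p = 0.32). For Agr2, 4 of the 5 arrays lay above every control array. No product had all N1N2 plus Lrp6 arrays above all control arrays, as 1.5% of probes did. Without replicate 2 of N1N2 plus Lrp6 the Agr2 difference was 0.34 and the Spink4 difference 0.32, and those of Muc2, Tff3 and Fcgbp changed sign, to -0.04, -0.13 and -0.10, with none called.

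The order of the group means was N1N2, then N1N2 plus Lrp6, then control for 8 of the 10 genes. For Clca1 and Zg16, control lay between the other two. Without replicate 2 of N1N2 plus Lrp6 that order held for 5 genes, and control lay between the other two for Muc2, Tff3 and Fcgbp as well. Neighbours in that order that passed the test were N1N2 and N1N2 plus Lrp6 for Agr2 and Retnlb only. Between N1N2 plus Lrp6 and control, no gene of the 10 was separated by the test.

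Within a group, all the products but Retnlb varied together from array to array. The deviation of each gene from its own mean over the 15 arrays, averaged over the 10 genes, ran from -0.47 on replicate 1 to 0.61 on replicate 2 in N1N2 plus Lrp6 crypts. In N1N2 crypts it ran from -0.00657 on replicate 2 to 0.74 on replicate 1, and in control crypts from -0.44 to -0.17. N1N2 replicate 1 was the highest of its group for 8 genes, and N1N2 replicate 2 was the lowest for 8. The SD of that mean deviation was 0.45 in N1N2 plus Lrp6 crypts (0.26 without replicate 2), 0.31 in N1N2 crypts and 0.13 in control crypts.

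**Figure D3:**
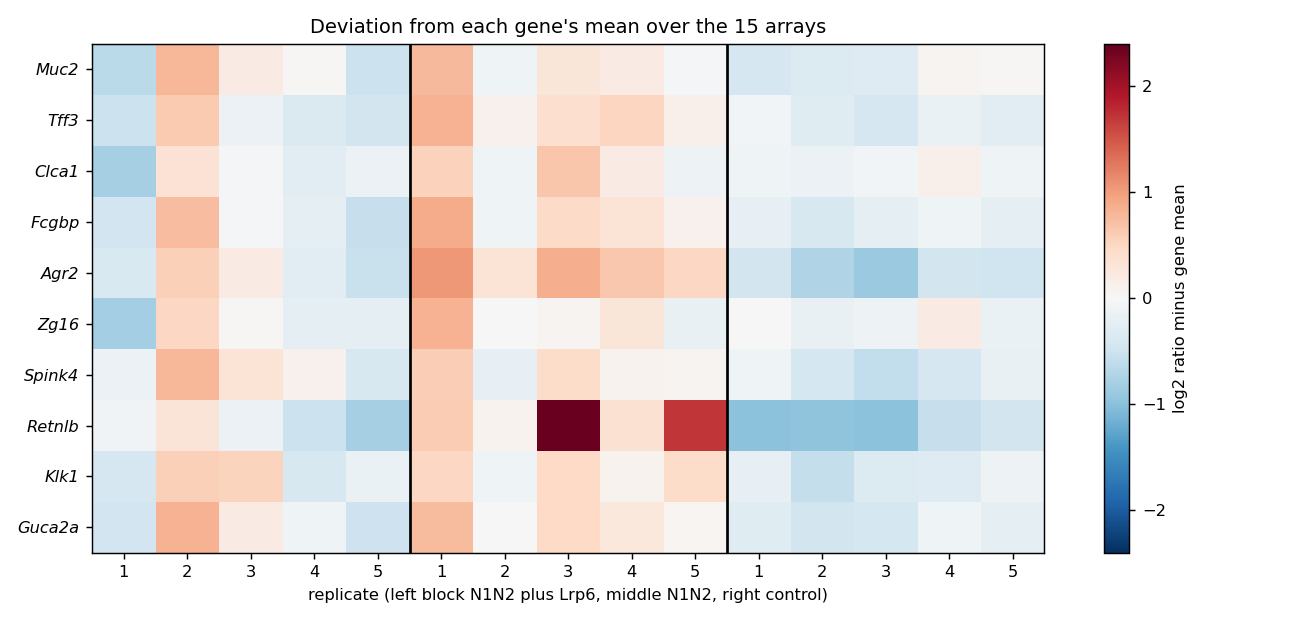
Deviation of each product (rows) from its own mean over the 15 arrays, in log2 units (colour), on the 5 replicates of N1N2 plus Lrp6, N1N2 and control crypts (columns, left to right). Replicate 2 of N1N2 plus Lrp6 and replicates 1, 3 and 4 of N1N2 lie above the mean for all 10 genes, and the strongest red is Retnlb on N1N2 replicate 3.

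Other cell markers moved on the same arrays. The mean log2 ratio of 16 enterocyte markers was 7.39 on replicate 2 of N1N2 plus Lrp6, the highest of a group that ran from 6.32. It was 7.53 on replicate 1 of N1N2, the highest of a group that ran from 6.78. Control arrays ran from 6.76 to 7.14. Of those 16 markers 0 were called higher and 1, Ada, was called lower in N1N2 against control crypts, and 0 were called in N1N2 plus Lrp6 against N1N2 crypts. Over all probes, 11.4% and 16.5% were called in either direction in those comparisons. The part of enterocyte RNA in the array-to-array differences of the products was not tested.

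Over the 15 arrays the 45 pairs among the 10 genes had Pearson correlations from 0.24 to 0.97, with a median of 0.82. Taken as deviations from group means the median was 0.81. The closest pair was Fcgbp with Guca2a (r = 0.97), followed by Tff3 with Fcgbp (r = 0.96) and Muc2 with Guca2a (r = 0.95). Retnlb stood apart: its correlations with the other genes ran from 0.24 to 0.82, and those among the other genes from 0.57 to 0.97. As deviations from group means, the correlations of Retnlb ran from -0.076 to 0.54 and those among the other genes from 0.60 to 0.97. These values describe 15 arrays that share a reference RNA, and each pair shares the RNA of the same crypts.

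Among 15811 named genes outside the 10 that had a value on every array, those whose levels over the 15 arrays were most like each product differed between products. For Muc2 they were Spint1 (r = 0.96) and Ihh (r = 0.95), and Spint1 (r = 0.96) and Ihh (r = 0.94) were also the closest for Guca2a. For Fcgbp the closest was Reg3g (r = 0.96) and for Clca1 it was Reg3b (r = 0.97), both of them lectins of the Reg3 family. For Zg16 they were Apoa1, Anpep and Cdhr2 (r from 0.94 to 0.95), an apolipoprotein, a brush border peptidase and a brush border cadherin of enterocytes. For Retnlb they were C2cd4b (r = 0.94), Dnah17 (r = 0.94) and C2cd4a (r = 0.93). Tff3 was closest to Mpp3 (r = 0.95), Agr2 to 1700066B19Rik (r = 0.95), Spink4 to Gpx2 (r = 0.94) and Klk1 to Ccl6 (r = 0.94).

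The machinery that makes, modifies and releases these products was described with 5 gene lists, each gene by its brightest probe. These lists were chosen with earlier results of these data known. In N1N2 against control crypts, the factors that set up the secretory lineage were higher. Over all probes, 6.2% were called higher and 5.23% lower in that comparison. Of 12 goblet and secretory transcription factors, 10 rose and 1 fell, with a median change of 1.49. Atoh1 rose by 1.95 (SE 0.25, limma adjusted p = 0.000161), Spdef by 1.90 (SE 0.13, adjusted p = 7.49e-07) and Creb3l1, a factor of the secretory pathway, by 1.63 (SE 0.14, adjusted p = 4.12e-06). Gfi1, which acts below Atoh1, rose by 1.79, and the enteroendocrine factor Neurog3 rose by 3.83. The gene that fell was Hes1, the Notch target (-0.87, SE 0.13, limma adjusted p = 0.000677). With slide as a fixed block 4 of the 12 were called higher.

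Mucin folding genes of the ER also rose in N1N2 against control crypts: 9 of 17 were called higher and 0 lower, with a median of 0.77. Ern2, the ER stress sensor of goblet cells, rose by 1.81 (SE 0.23, limma adjusted p = 0.00013), and the folding helpers Pdia5, Dnajc10 and Pdia6 by 1.51, 1.25 and 1.14. Hspa5, the main ER chaperone, had a difference of 0.77 (limma adjusted p = 0.0884) and Xbp1, a factor that expands the ER, of 0.45 (adjusted p = 0.0714). Agr3, the close relative of Agr2, had a difference of -0.10 (SE 0.17, limma adjusted p = 0.775). With slide as a fixed block 2 of the 17 were called higher.

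Of 17 genes tested in the glycosylation and sulphation list, 10 were higher in N1N2 crypts and 0 lower, with a median of 0.61. The list also holds the protease gene Bace2, which was among the 10. Fut2, which adds fucose to mucin glycans, rose by 1.88 (SE 0.27, limma adjusted p = 0.000468), the mucin-type transferases Galnt12 and Galnt7 by 1.46 and 1.14, and the branching enzyme Gcnt3 by 1.41. The count was 6 without control replicate 2 or 5, without N1N2 replicate 3 or 4 and with the scanner software's log ratio, 5 with the spread of ratios evened out and 0 with slide as a fixed block. Of 16 genes tested in the granule traffic and exocytosis list, 9 were higher and 0 lower, with a median of 0.48. Among the 9 were the protease genes Capn8, Capn9 and Tpsg1. Rap1gap, a regulator of the small GTPase Rap1, rose by 1.72 (SE 0.14, limma adjusted p = 2.79e-06) and the synaptotagmin-like Sytl2, which ties granules to Rab27, by 1.61 (SE 0.13, adjusted p = 2.79e-06). The calpain protease gene Capn8 rose, with mean log2 ratios of 2.02 in N1N2 crypts and 0.92 in control crypts (limma adjusted p = 0.00031). Sytl4, of the same family as Sytl2, rose by 0.96. The traffic count was 5 without control replicate 1, without N1N2 replicate 4, with the replicate block and with the spread evened out, 4 with median centring or the scanner software's log ratio, and 2 with slide as a fixed block.

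Of 16 other mucus and goblet products tested, 1 was called higher in N1N2 crypts and 0 lower, with a median of 0.18, beside the 6.2% of all probes called higher. The 1 was Hepacam2 (1.45, SE 0.12, limma adjusted p = 2.73e-06), which is a membrane protein and not a secreted one. The transmembrane mucin Muc13 had a difference of 0.47 (SE 0.34, limma adjusted p = 0.409), the uroguanylin gene Guca2b of 0.15 (SE 0.16, adjusted p = 0.583) and the guanylin receptor Gucy2c of 0.11 (SE 0.14, adjusted p = 0.677). The medians of the factor, folding, glycosylation and traffic lists stayed above 0 under every scaling tried, and with the spread evened out between arrays they were 1.14, 0.55, 0.40 and 0.22. The median of these other products was then -0.034.

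**Figure D4:**
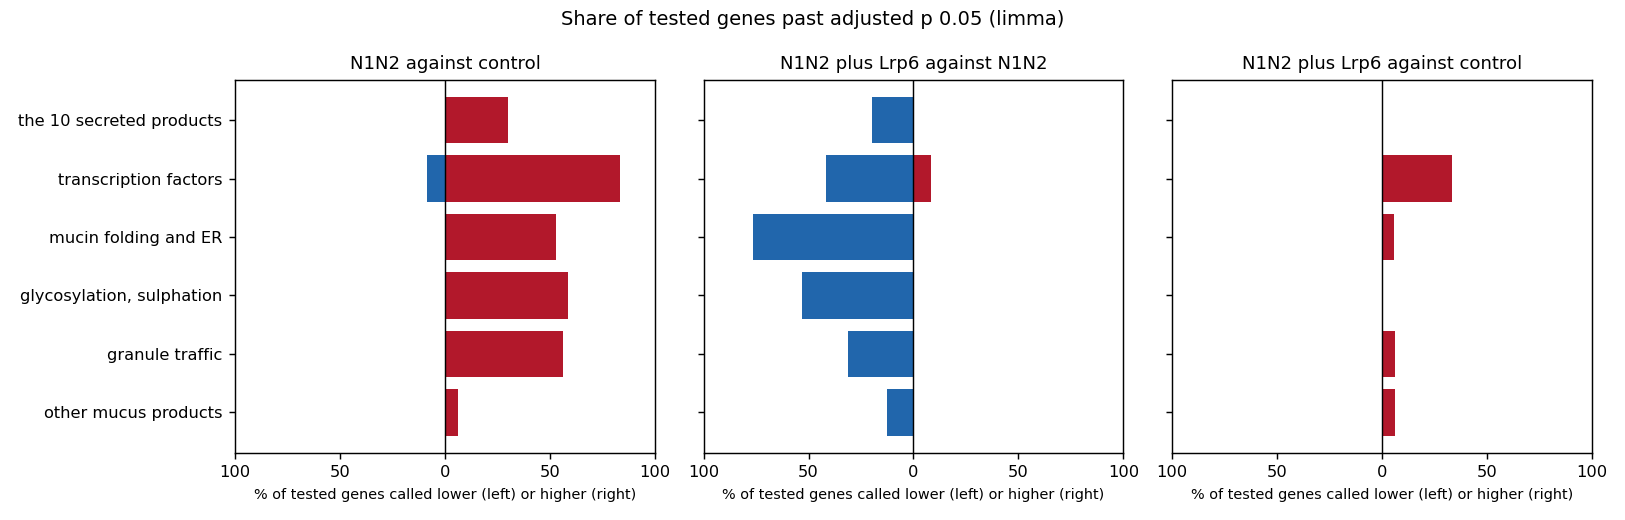
Share of tested genes called higher (red, right) or lower (blue, left) in limma, in percent on the horizontal axis, for the 10 secreted products and 5 lists of secretory genes in each comparison. In N1N2 against control crypts 10 of 12 transcription factors and 3 of the 10 products were called higher, and in N1N2 plus Lrp6 against control crypts 4 of the factors and 0 of the products were.

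With the Lrp6 antibody added, 6.87% of all probes were called lower and 9.67% higher than with Notch blockade alone. Members of every list were among those called lower, with the smallest share in the list of other products. Against N1N2 crypts, 13 of 17 folding and ER genes were lower in N1N2 plus Lrp6 crypts, with a median of -0.65, among them Hspa5 (-1.18, SE 0.28, limma adjusted p = 0.0101), Hsp90b1 (-1.31), Pdia6 (-1.27) and Creld2 (-1.16). Of the glycosylation genes 9 of 17 were lower, with Fut2 at -1.72 (SE 0.27, limma adjusted p = 0.00113), and of the traffic genes 5 of 16, with Sytl2 at -1.25, Rap1gap at -0.99, Capn8 at -0.96, Sytl4 at -0.63 and Rab26 at -0.25. Of the transcription factors 5 of 12 were lower: Gfi1 at -1.27, Spdef at -0.96 (SE 0.13, limma adjusted p = 0.000555), Atoh1 at -0.92, Creb3l1 at -0.89 and Creb3l4 at -0.70. Hes1 rose by 0.54 (SE 0.13, limma adjusted p = 0.0113). Of the other products, 2 of 16 were lower, Hepacam2 (-0.82) and Gucy2c (-0.44), and 1 was without N1N2 replicate 1, 3 or 4 or without N1N2 plus Lrp6 replicate 1 or 4. Under median centring the lower counts were 6 for folding, 5 for glycosylation, 4 for traffic and 2 for the factors. With the spread evened out they were 11 for folding, 4 for traffic, 2 for glycosylation, 2 for the factors and 0 for the other products. The traffic count was 4 with no filter on dim probes. It was 3 with the scanner software's log ratio and 6 with slide as a random block.

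Against control, 4 of the 12 transcription factors were still called higher in N1N2 plus Lrp6 crypts, with a median of 0.73: Neurog3 (3.29), Creb3l4 (0.95), Spdef (0.95, SE 0.13, limma adjusted p = 0.00547) and Creb3l1 (0.74). Atoh1 had a difference of 1.03 there (SE 0.25, limma adjusted p = 0.0929). Beyond these, 1 folding gene (Dnajc10, 0.60), 1 traffic gene (Rap1gap, 0.73), 1 other product (Hepacam2, 0.63) and 0 glycosylation genes were called. Over all probes, 0.197% were called higher there. The factor count was 7 without N1N2 plus Lrp6 replicate 5, 9 with slide as a random block, 2 with median centring and 1 with the spread evened out. Each of the counts of 1 became 0 when certain single arrays were left out.

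The markers of neighbouring lineages give the setting in which the products were measured. Their lists too were chosen with earlier results of these data known. Over all probes, 6.2% were called higher and 5.23% lower in N1N2 against control crypts. The shares were 9.67% higher and 6.87% lower in N1N2 plus Lrp6 against N1N2 crypts, and 0.161% lower in N1N2 plus Lrp6 against control crypts. The Paneth and tuft counts below lie near the share over all probes. In N1N2 against control crypts 4 of 22 enteroendocrine markers were called higher and 0 lower, namely Rfx6 (2.20), Pax4 (1.96), Pcsk1 (0.88) and Isl1 (0.47), and Chga had a difference of 0.26 (limma adjusted p = 0.209). Of 12 Paneth markers tested, 1 was higher, Wnt3 (1.90), and 1 lower, Copz2 (-0.27), with Lyz1 at 0.04 (adjusted p = 0.954). Of 9 tuft markers 1 was higher, Trpm5 (0.39), with Dclk1 at -0.22 on its brightest probe (limma adjusted p = 0.313). Of the 3 Dclk1 probes, 1 had a difference of the other sign. Cell cycle genes went the other way: 12 of 17 were called lower in N1N2 against control crypts and 14 of 17 higher in N1N2 plus Lrp6 against N1N2 crypts. The 12 became 7 with median centring and 0 with slide as a fixed block. Of 14 stromal and muscle markers, 2 were lower in N1N2 against control crypts (Dcn and Lum). In N1N2 plus Lrp6 crypts 5 were lower against N1N2 (Col1a1, Col1a2, Acta2, Myh11 and Pecam1) and 2 against control (Col1a1 and Col3a1). Of 13 immune markers, 2, Gzma and Cd3e, were lower in N1N2 against control crypts. With single arrays left out, the stromal counts ran from 0 to 4 in N1N2 against control crypts, from 2 to 5 in N1N2 plus Lrp6 against N1N2 crypts and from 0 to 5 in N1N2 plus Lrp6 against control crypts. The mean log2 ratio of the stromal list ran from -3.72 to -3.10 in N1N2 plus Lrp6 crypts, from -3.08 to -2.74 in N1N2 crypts and from -2.97 to -2.30 in control crypts, and its part in the results was not tested.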

How the data were processed

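Small-intestinal crypt RNA of 15 samples was hybridised on 2-colour Agilent arrays, crypt RNA in Cy5 (red) against a common reference in Cy3 (green), with no dye swap, per the labels' protocols. The deposited scanner files give the median intensity and background intensity of each spot in both channels and a log10 ratio by the scanner software (Feature Extraction 11.0.1.1), per the file headers, with probes designed on build mm9. A series table of log2 ratios deposited by the authors was made with R 3.0.0 and limma 3.6.7 per the submitters' processing notes. Its columns correlated with the values computed here at r of at least 0.99998, and their medians were 0.0144 to 0.0286.

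Values were computed in R 4.3.3 with limma 3.58.1. Non-uniform and outlier spots (306 to 642 of the non-control spots per array) were left out, background was corrected by normexp (offset 50), ratios were normalized by loess within arrays, and spots of a probe were averaged. Median intensities were used because the files hold no means. A probe was kept when its red signal was well above background on 4 or more of the 5 arrays in any group (28488 kept). Names came from unversioned accessions in the RefSeq table of GRCm38.p6 (26581 probes named, 12848 unnamed). One limma fit over all 15 arrays gave the 3 comparisons, with Benjamini-Hochberg adjustment over all probes kept. P-values set a group difference against the spread between arrays of a group, estimated once over the 3 groups. The number of arrays limits the precision. The fit was tested on simulated data with independent noise for each probe and no slide effect. That test does not cover slides or variation shared between genes.

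The 10 genes and the gene lists were chosen with earlier results of these data known. All 10 genes are named. From each other list, the up to 4 genes with the largest change among those called with groups that do not overlap were named, with fixed anchors (Atoh1, Spdef, Hes1, Creb3l1, Ern2, Xbp1, Hspa5, Guca2b, Gucy2c, Muc13, Lyz1, Chga, Dclk1, Fabp1). Agr3 and the genes named where a count was 5 or fewer were named after their values were seen. The alternatives covered normalization, background offset, filter, deposited values, slide, replicate number, groups in the fit, 1 probe per gene, single arrays left out and, chosen after seeing the data, the red channel alone. Probe sequences were not used here.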

Additional observations from a re-analysis of the deposited data

How the results depend on the processing

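The limits of these values are the number of arrays, the slides, which hold a single group except for one, and the dim reference signal of Retnlb. Agr2 kept its call in N1N2 against control crypts under 20 of 22 alternatives and Retnlb under 21 of 22, both losing it with slide as a fixed block and Agr2 also when spread was evened out between arrays. Tff3 kept its call under 7 of 22, and lost it when any array of these groups other than N1N2 replicate 2 or 5 was left out.

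Counts in N1N2 against control crypts were 3 products and 3257 probes (54.3% of the calls higher). With median centring they were 2 products and 1457 probes (45.6% higher), with the spread evened out 1 and 2647 (54.3%), with the scanner software's log ratio 2 and 2151, with slide as a fixed block 0 and 117 (73.5%), with slide as a random block 6 products, with only the compared groups 7 and 4970, and with the red channel alone 7. Leaving out single arrays gave 2 to 4 products and 1747 to 3256 probes, the fewest without control replicate 2. In N1N2 plus Lrp6 against N1N2 crypts the counts were 2 and 4713 (58.5% higher). They were 1 product with median centring (77.2% of probe calls higher), with the scanner software's log ratio and with only the compared groups, 0 products and 3914 probes with the spread evened out, and 4 and 8327 with slide as a random block (estimated correlation within slides -0.18). Leaving out single arrays gave 1 to 6 products and 2937 to 5624 probes. In N1N2 plus Lrp6 against control crypts the counts were 0 and 102 (54.9% higher). They were 34 probes with median centring, 56 with the spread evened out (66.1% higher), 181 with the scanner software's log ratio (38.1% higher), 54 with only the compared groups (70.4%), 2 products and 3270 probes with slide as a random block, and 1 product with the red channel alone. Leaving out single arrays gave 0 to 0 products and 27 to 422 probes, the most without N1N2 plus Lrp6 replicate 5.

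With replicate number as a block the products called were 2, 2 and 0 in the 3 comparisons in that order, and the probes 2823, 4370 and 32. Same-numbered arrays correlated in their deviations at -0.00757 to 0.614, -0.422 to 0.0843 and -0.264 to 0.00129. In N1N2 against control crypts 4 of the 5 pairs lay above 0.1, and for 2 the likest control array had the same number. The numbers were not taken to pair samples, though these values do not settle that for N1N2 against control crypts. Of the 10 products, the block ended the call of Tff3 in N1N2 against control crypts and changed no other.

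Several directions turned where the spread was evened out, which by construction multiplies each array's ratios, large for these genes, by its own factor. In N1N2 against control crypts the values were then -0.59 for Clca1, -0.087 for Fcgbp, -0.031 for Guca2a, -0.13 for Muc2, -0.13 for Spink4 and -0.39 for Zg16. In N1N2 plus Lrp6 against N1N2 crypts they were 0.41 for Clca1, 0.16 for Fcgbp, 0.28 for Guca2a, 0.13 for Klk1, 0.24 for Muc2, 0.58 for Spink4 and 0.24 for Zg16. For the other turns the cause was not tested. Under median centring Zg16 was -0.0053 (N1N2 against control), 0.028 (N1N2 plus Lrp6 against N1N2) and 0.023 (N1N2 plus Lrp6 against control), and in N1N2 plus Lrp6 against N1N2 crypts Guca2a was 0.054 and Spink4 0.18. With the scanner software's log ratio, in the same comparison, Muc2 was 0.068 and Spink4 0.067, and Retnlb was -0.34 in N1N2 plus Lrp6 against control crypts. Spink4 was 0.0033 in N1N2 plus Lrp6 against N1N2 crypts with slide as a random block, and -0.22 to 0.074 when single arrays were left out. In N1N2 plus Lrp6 against control crypts Tff3 was -0.026 with no offset, and leaving out single arrays gave -0.25 to 0.038 for Clca1, -0.25 to 0.072 for Zg16, -0.10 to 0.23 for Fcgbp, -0.044 to 0.32 for Muc2 and -0.13 to 0.16 for Tff3.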
